A study of Mus musculus with 4 samples.

Results

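Gbx2 (Entrez gene 14472, RefSeq transcript NM_010262), the gene of a homeobox transcription factor, was followed over 4 bead arrays of mouse embryonic stem (ES) cells. It was chosen by its values on these same arrays, where it was high with FGF2 and lower with a JAK inhibitor, so everything below about its own levels is a description and carries no test. It is 1 of 16593 genes with a probe in the array's annotation and 1 of the 8341 that were detected on at least 1 array. The annotation gives it 1 probe, ILMN_1249766, so no other probe of the gene checks the values.

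The cells were OG2 ES cells, a mouse line with a Pou5f1-driven green fluorescent protein reporter. All 4 groups had been grown under the same conditions, on gelatin in KSR medium that held 1000 U/ml leukaemia inhibitory factor (LIF, which activates STAT3 through JAK kinases), the MEK inhibitor PD0325901 at 1 µM (it blocks ERK activation) and the GSK3 inhibitor CHIR99021 at 3 µM. For the next 12 h they were kept in PD0325901 plus LIF (PD/LIF), in 10 ng/ml FGF2 plus LIF (FGF2/LIF), in PD0325901 plus 1 µM JAK inhibitor I (PD/JAKi), or in 10 ng/ml FGF2 plus 1 µM JAK inhibitor I (FGF2/JAKi). FGF2 stands in the place of PD0325901 and the JAK inhibitor in the place of LIF, so giving one agent and withdrawing the other cannot be told apart, and CHIR99021 is named in none of the later media. Each group is 1 array of 1 line, with no replicate, so that no difference here has a test and the number of arrays limits every comparison.

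Gbx2 is known from the midbrain-hindbrain boundary of the embryo, where it is expressed on the hindbrain side, Otx2 on the midbrain side, and each represses the other. FGF8 from that boundary is known to raise Gbx2 expression in the neural tube. In mouse ES cells Gbx2 is known as a target of LIF and STAT3 whose forced expression helps to sustain self-renewal without LIF. Both inputs crossed in this experiment therefore have a known link to the gene.

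The stretch upstream of the gene is shown because it is the proximal window in which a response element of either pathway would first be looked for. It covers the 250 bases before the RefSeq transcription start, on the minus strand, at chr1:89931177-89931426 of GRCm38.p6, from the RefSeq promoter table. Capitals mark its 18 CpG dinucleotides.
Gbx2 promoter: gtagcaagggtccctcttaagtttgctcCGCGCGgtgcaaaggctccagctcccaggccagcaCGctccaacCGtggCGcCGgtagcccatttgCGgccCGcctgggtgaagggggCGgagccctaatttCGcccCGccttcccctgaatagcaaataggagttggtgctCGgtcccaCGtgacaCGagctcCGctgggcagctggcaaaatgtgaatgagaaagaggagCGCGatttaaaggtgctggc

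Over the table's full window of 300 bases, which adds 50 bases after the start, Gbx2 had 27 CpG dinucleotides, against a median of 7 over 32851 promoters, and 15.5% of promoters had at least as many. Its G and C content was 64.7% (median of all promoters 52.7%). The STAT motif TTCNNNGAA, which reads the same on both strands, occurred 0 times in the window and in 8.30% of all promoters. The ETS motif CGGAAG, searched on both strands, also occurred 0 times and was present in 16.9% of all promoters. These are matches of letters in this window only, and sites elsewhere were not searched.

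Gbx2 was well above background on all 4 arrays, with a detection p of 0 on each (no negative control bead type was as bright). As deposited, its bead signal was 689 ± 29.7 (bead standard error) in PD/LIF. In FGF2/LIF the signal was 2199 ± 66.1. In PD/JAKi it was 453 ± 22.4, the lowest of the 4, and in FGF2/JAKi it was 1577 ± 66.7. Both arrays with FGF2 were thus above both arrays with PD0325901, and within each of these pairs the array with LIF was the higher. The bead errors came to 3.01% to 4.95% of the signal, where the median over detected probes was 4.07% to 4.52%. The median signal of all probes also differed between arrays, from 82.0 in PD/JAKi to 92.8 in FGF2/JAKi, so the signals were normalized before differences were taken.

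After background correction and quantile normalization the Gbx2 level was 9.40 (log2 signal) in PD/LIF, 11.00 in FGF2/LIF, 8.84 in PD/JAKi and 10.32 in FGF2/JAKi. The authors' value table gave 667, 2042, 442 and 1269 intensity units for the same 4 conditions. The order of the conditions was the same on all 3 scales. In cells measured in bulk, fewer cells that express the gene and less RNA in each cell cannot be told apart.

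**Figure D1:**
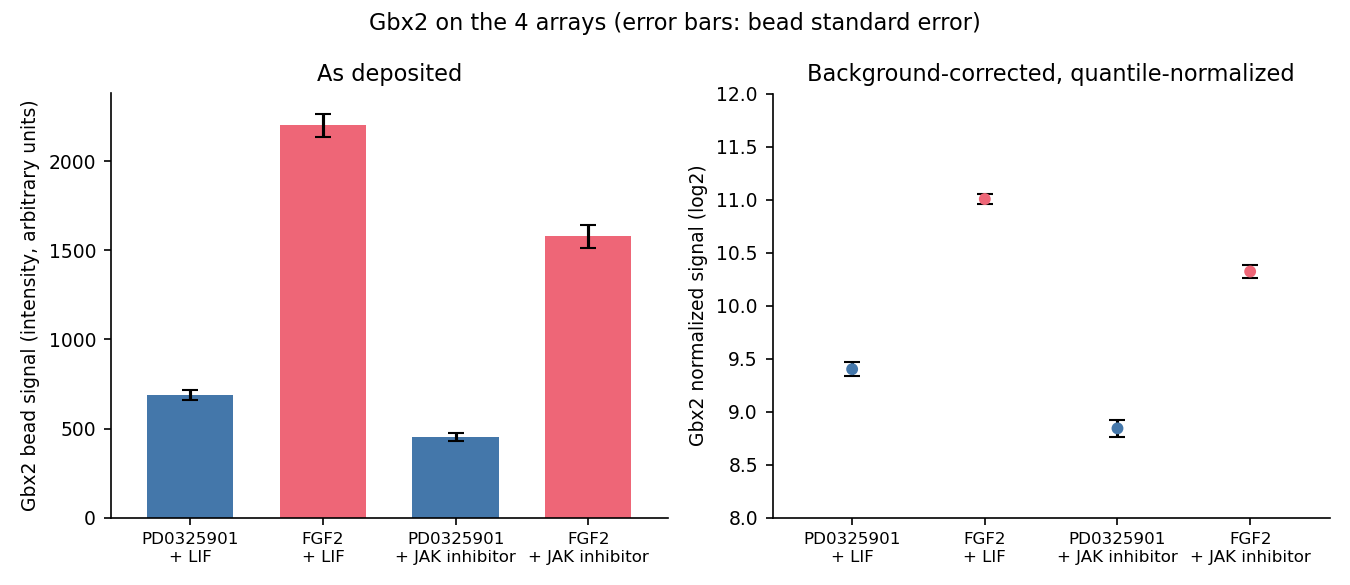
Gbx2 on each of the 4 arrays, 1 array per condition: the bars give the deposited bead signal (intensity, axis from 0) and the points the background-corrected, quantile-normalized log2 signal, both with the bead standard error of that array. Both FGF2 arrays (2199 and 1577) lie above both PD0325901 arrays (689 and 453), and the array with LIF is the higher of each pair.

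With LIF present, Gbx2 was 3.04-fold higher with FGF2 than with PD0325901 (log2 difference 1.60, bead standard error 0.08). The interval from bead error alone, at 95%, ran from 1.44 to 1.76, and it covers the beads of these arrays and not the spread between cultures. The difference ranked 12 from the top of 8341 genes, of which 57 (0.683%) were at least 2-fold higher. In the JAK inhibitor background, Gbx2 was 2.79-fold higher with FGF2 (log2 1.48, bead interval 1.27 to 1.68). There it ranked 10, and 0.276% of genes were at least 2-fold higher. Since the choice of Gbx2 used these contrasts, the ranks and shares say where it lies and support nothing further.

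The JAK inhibitor differences were smaller. With PD0325901, Gbx2 was 1.47-fold lower with the JAK inhibitor than with LIF (log2 −0.56, bead interval −0.77 to −0.35). With FGF2 it was 1.61-fold lower (log2 −0.68, bead interval −0.84 to −0.53). Neither reached 2-fold, where 0.647% of genes with PD0325901 and 0.432% with FGF2 were lower by that much. At 1.5-fold, which Gbx2 passed with FGF2 only, 4.54% and 2.84% of genes were lower. Which background passed depended on the processing. Gbx2 was lower by 1.56-fold with PD0325901 and 1.49-fold with FGF2 after median scaling, and by 1.59-fold and 1.41-fold without normalization between arrays. In the authors' value table both passed, at 1.51-fold and 1.61-fold. Its difference ranked 432 from the lowest with PD0325901 and 149 with FGF2, far less extreme than its ranks for FGF2. Averaged over both backgrounds, the FGF2 difference (log2 1.54, 2.91-fold) was 2.48 times the size of the JAK inhibitor difference (log2 −0.62, 1.54-fold) on the log2 scale.

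Further contrasts place the conditions against each other. In FGF2/LIF, Gbx2 was 4.48-fold above its level in PD/JAKi (log2 2.16, bead interval 1.98 to 2.35), and 0.995% of genes were at least 2-fold higher in that contrast. In FGF2/JAKi, Gbx2 was 1.89-fold higher than in PD/LIF (log2 0.92, bead interval 0.74 to 1.10), the medium closest to the starting culture. In that contrast 0.719% of genes were at least 2-fold higher. The bead intervals of all 6 pairwise differences lay on one side of 0, but with 1 array a condition the spread that decides whether neighbouring levels differ was not measured.

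The fold difference for FGF2 was close to the same in both backgrounds. The departure from additivity, the FGF2 difference with the JAK inhibitor minus that with LIF, was −0.13 on the log2 scale, with a bead interval of −0.38 to 0.13 that includes 0. Of all 8341 genes, 71.3% departed by more in size, and the middle 90% of genes ran from −0.64 to 0.61. The sign of the Gbx2 departure was not stable, being 0.065 with median scaling and 0.17 without normalization between arrays. On the deposited signal scale, FGF2 added 1510 units with LIF and 1125 units with the JAK inhibitor, and the JAK inhibitor took away 236 units with PD0325901 and 622 units with FGF2. Log2 values near additivity therefore go with unequal steps on the linear scale.

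**Figure D2:**
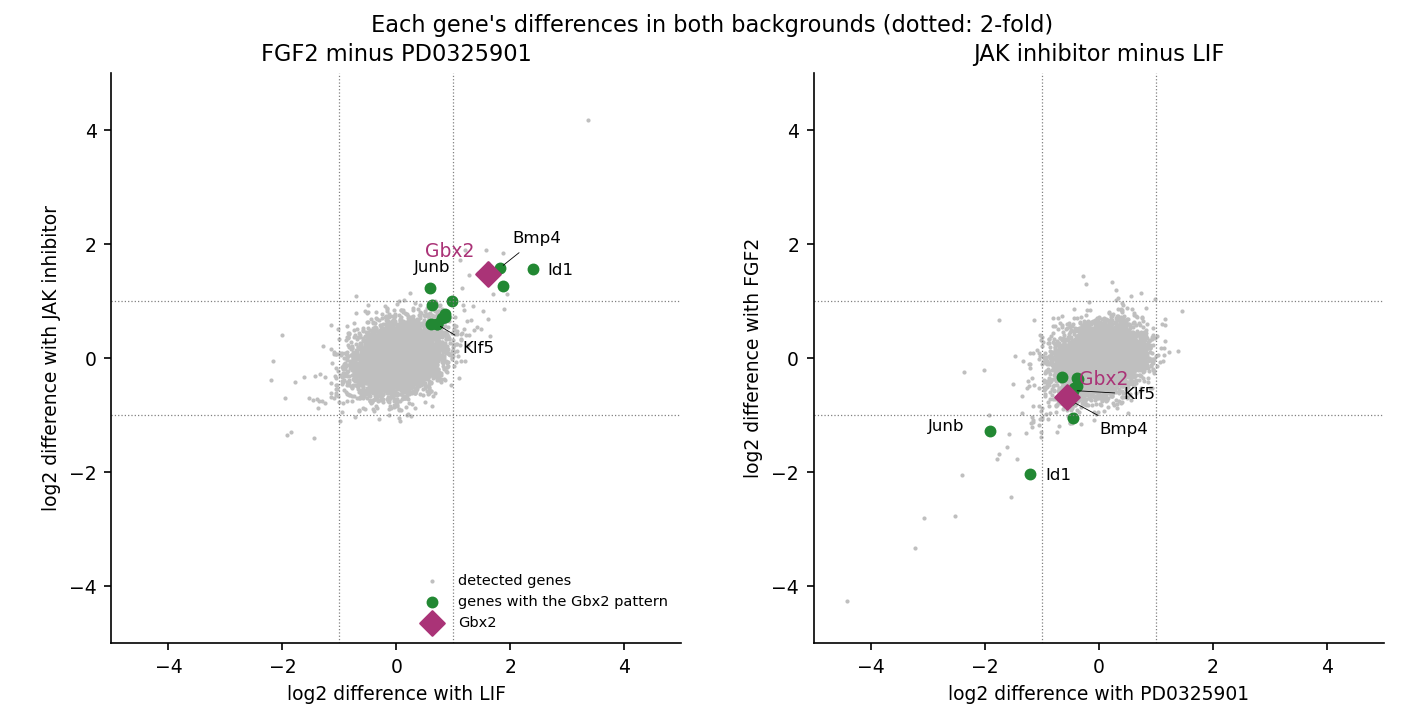
Each grey point is 1 of 8341 detected genes, with its log2 difference for FGF2 minus PD0325901 (left, x with LIF, y with the JAK inhibitor) and for JAK inhibitor minus LIF (right, x with PD0325901, y with FGF2); dotted lines mark 2-fold. Gbx2 (diamond) lies beyond 2-fold in both backgrounds on the left, at 1.60 and 1.48, and inside the 2-fold lines on the right, at −0.56 and −0.68, with the other genes of its pattern in green.

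The combination seen for Gbx2 was then counted over all genes. A gene was given the Gbx2 pattern where it was at least 1.5-fold higher with FGF2 in both backgrounds and no less than 20% lower with the JAK inhibitor in both. This held for 13 of 8341 genes (0.156%), while 63 genes (0.755%) met the FGF2 condition and 302 (3.62%) the JAK inhibitor condition. The 4 differences share arrays in pairs, so the conditions are not independent and their overlap was not tested. Of the 17 genes at least 2-fold higher with FGF2 in both backgrounds (0.204% of all), 4 (23.5%) were no less than 20% lower under the JAK inhibitor in both, namely Gbx2, Bmp4, Id1 and Snai3. The full order of the 4 Gbx2 levels was found in 394 genes (4.72%), and in 7 of those 17 (41.2%). The 2-fold rule that picked the 17 fixes part of that order in advance, and Gbx2 is itself among the 7. The shares are therefore not comparable.

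Id1, an inhibitor of basic helix-loop-helix factors and a target of BMP signalling, had the largest summed differences of the 13. Its levels were 6.46 in PD/LIF, 8.85 in FGF2/LIF, 5.26 in PD/JAKi and 6.82 in FGF2/JAKi (log2 signal). It followed the same order as Gbx2, with wider steps for the JAK inhibitor (−1.20 with PD0325901 and −2.03 with FGF2). In PD/JAKi its deposited signal was close to background (95.3), so differences taken against that array are uncertain in size.

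Junb, an AP-1 subunit, had levels of 7.22, 7.82, 5.32 and 6.54 in the same sequence of conditions. Unlike Gbx2 it was lower in FGF2/JAKi than in PD/LIF, and its JAK inhibitor differences (−1.90 and −1.27) were larger than its FGF2 differences (0.60 and 1.22). Its deposited signal in PD/JAKi was also close to background (97.0), which leaves the −1.90 and the 1.22 uncertain in size. Klf5, a Krüppel-like factor of the naive state, had levels of 11.36, 12.07, 10.91 and 11.50 and kept the order of Gbx2 with FGF2 differences of 0.71 and 0.59. Gata6, a regulator of primitive endoderm, was close to background and stood at 5.75, 6.55, 5.20 and 5.89, also in that order. Other primitive endoderm markers did not share the pattern. On the probe used, Dab2 stood at −0.61 and −0.44 for FGF2 and at 0.21 and 0.38 for the JAK inhibitor. Lama1 stood at 1.01 and 0.10 for FGF2 and at −1.53 and −2.44 for the JAK inhibitor. Sox7 was not detected with PD0325901, and Gata4, Sox17, Foxa2 and Pdgfra were not detected on any array.

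Of the other genes with the pattern, Noct, which encodes nocturnin, was detected on all 4 arrays. Its FGF2 differences were 0.98 and 1.01 on the probe used, and 0.85 and 0.01 on its other detected probe, so the pattern is not shared by its probes. Atg9b, an autophagy gene, and Rgs16, a regulator of G protein signalling, were not detected in PD/JAKi, and Soga3 was not detected with PD0325901 in either background. Against the detection limit, Atg9b was at least 1.62-fold higher with FGF2 in the JAK inhibitor background, Rgs16 at least 1.83-fold and Soga3 at least 1.08-fold. Just inside the thresholds stood Rgs16, Klf5 and Junb, by 0.005, 0.009 and 0.011 (log2). Just outside stood Hmces, detected on all 4 arrays, with an FGF2 difference of 0.56 in the JAK inhibitor background. Wnt6 was also just outside, but it was not detected with PD0325901 in either background, and there its difference is bounded only as at least 1.10-fold.

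Likeness of profile was measured separately, as the Euclidean distance between 4 log2 values, each taken minus the mean of its gene over the 4 arrays. Centred in this way Gbx2 stood at −0.49 in PD/LIF, 1.11 in FGF2/LIF, −1.05 in PD/JAKi and 0.43 in FGF2/JAKi. Over the other 8340 genes the median distance from it was 1.70 and the nearest 1% lay within 1.06. Gbx2's own bead error, combined over the 4 arrays, was 0.13, for comparison with these distances.

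Bmp4, which encodes a secreted BMP ligand, was nearest, at a distance of 0.17. Its levels were 7.48 in PD/LIF, 9.29 in FGF2/LIF, 6.97 in PD/JAKi and 8.56 in FGF2/JAKi (log2 signal). Its differences lay beside those of Gbx2 in every contrast, at 1.82 and 1.58 for FGF2 and at −0.51 and −0.74 for the JAK inhibitor. Bmp4 was the nearest gene under all 7 other settings tried as well.

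Snai3, a Snail family gene, was next, at 0.27. Its levels were 5.93, 7.80, 5.48 and 6.75 in the same sequence of conditions, and with FGF2 its JAK inhibitor difference (−1.04) was larger than that of Gbx2. With PD0325901 it was close to background, with deposited signals of 121 in PD/LIF and 101 in PD/JAKi, so its sizes are uncertain. Snai3 did not have the Gbx2 pattern without background correction or with an offset of 50. Inhba, which encodes an activin subunit, was at 0.42 but was not detected in PD/JAKi, where it was at least 3.00-fold lower than with FGF2. Etv4, an ETS factor and ERK target, was at 0.44, with FGF2 differences like those of Gbx2 (1.43 and 1.49) and smaller JAK inhibitor differences (−0.23 and −0.16). The remaining 6 were Trf (transferrin), Noct, Vgf (a neuropeptide precursor), Exoc3l, Tcof1 (a nucleolar protein) and Esam (an adhesion molecule of endothelial cells), at 0.57 to 0.70. Trf, Vgf, Exoc3l and Esam were close to background with PD0325901, with deposited signals of 94.5 to 111. In the JAK inhibitor contrasts none of the 6 was lower in both backgrounds by the margin of Gbx2. Exoc3l stood at 0.13 and −0.06, Trf at −0.06 and −0.97, and Noct at −0.38 and −0.35. Vgf stood at −0.13 and −0.06, Tcof1 at −0.01 and −0.35, and Esam at 0.25 and −0.44. Between 5 and 10 of the 10 names remained under the other settings. The profiles rest on 4 arrays, and with so few points near profiles say nothing of shared control.

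**Figure D3:**
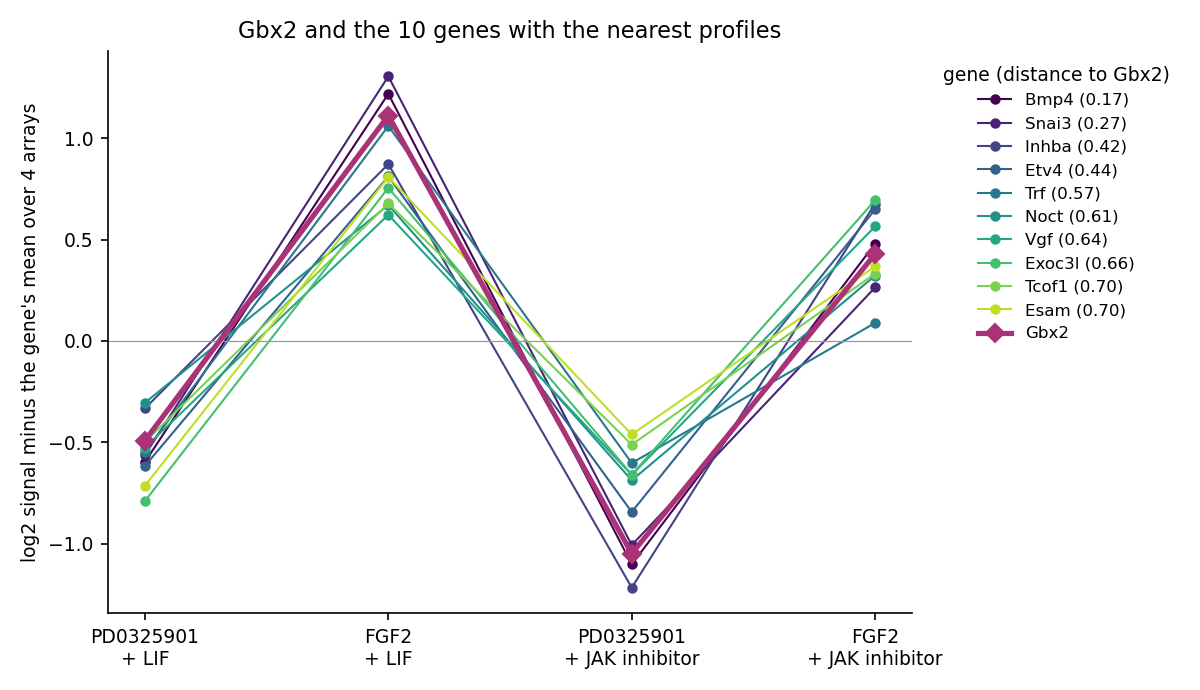
Log2 signal of Gbx2 (thick line) and of the 10 genes with the nearest profiles, each minus its own mean over the 4 arrays, with the distance to Gbx2 in brackets; lines only join the 4 separate conditions. Bmp4 (0.17) runs closest to Gbx2, and the genes at 0.57 or more have shallower values in PD/JAKi.

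Gbx2 was next set beside the genes of both inputs. In the list of LIF, JAK and STAT3 targets, 18 of 21 genes have a probe and all 18 were detected on some array, so that 17 stood beside Gbx2. Of the 17, 6 were lower by 2-fold or more under JAK inhibition in the PD0325901 background and 8 in the FGF2 background, against 0.647% and 0.432% of all genes. The list's medians were −0.66 and −0.84, those of all genes 0.00 and 0.01. Socs3, the feedback inhibitor of JAK signalling, shows the range of the list, with levels of 9.90 and 10.05 with LIF and of 5.49 and 5.79 with the JAK inhibitor. Gbx2, at −0.56 and −0.68, lay nearer to the middle of the list than to that end.

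For FGF2 the same list looked different. Its medians without Gbx2 were 0.15 with LIF and 0.15 with the JAK inhibitor, and 0 of 17 members beside LIF and 1 beside the inhibitor (Junb) were higher by 2-fold or more, beside 0.683% and 0.276% of all genes. Gbx2, at 1.60 and 1.48, was above each of the 17 in both backgrounds. Junb and Klf5 were the members with the Gbx2 pattern, which 0.156% of all genes had. Each passed narrowly, Junb by 0.011 and Klf5 by 0.009 (log2). Neither had the pattern without background correction, and Junb did not with an offset of 50. Stat3, which encodes the transcription factor itself, stood at 0.48 and 0.55 for FGF2 and at −1.74 and −1.68 for the JAK inhibitor. Of its other detected probes, one gave 0.14 and −0.23 for FGF2, so that direction depends on the probe, and all 3 were lower with the JAK inhibitor.

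In the list of ERK targets and feedback genes, 19 of 20 have a probe and 15 were detected. Of these, 6 were at least 2-fold higher with FGF2 in the LIF background and 4 in the JAK inhibitor background, beside the same 0.683% and 0.276% of all genes. The list medians were 0.55 and 0.86, and the second was 0.34 without background correction and 0.48 with an offset of 50. The Gbx2 difference was close to that of Dusp6, an ERK phosphatase, whose levels were 9.44 and 9.62 with PD0325901 and 11.02 and 11.05 with FGF2. Its JAK inhibitor differences were 0.18 and 0.04 on this probe. They were −0.25 and −0.27, and 0.08 and 0.47, on its other detected probes, so their sign depends on the probe. None of the 15 met the Gbx2 pattern, and 0 were no less than 20% lower under JAK inhibition in both backgrounds (3.62% of all genes). The JAK inhibitor medians of the list were −0.08 and −0.09, and the second was 0.04 with median scaling and 0.12 without normalization.

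**Figure D4:**
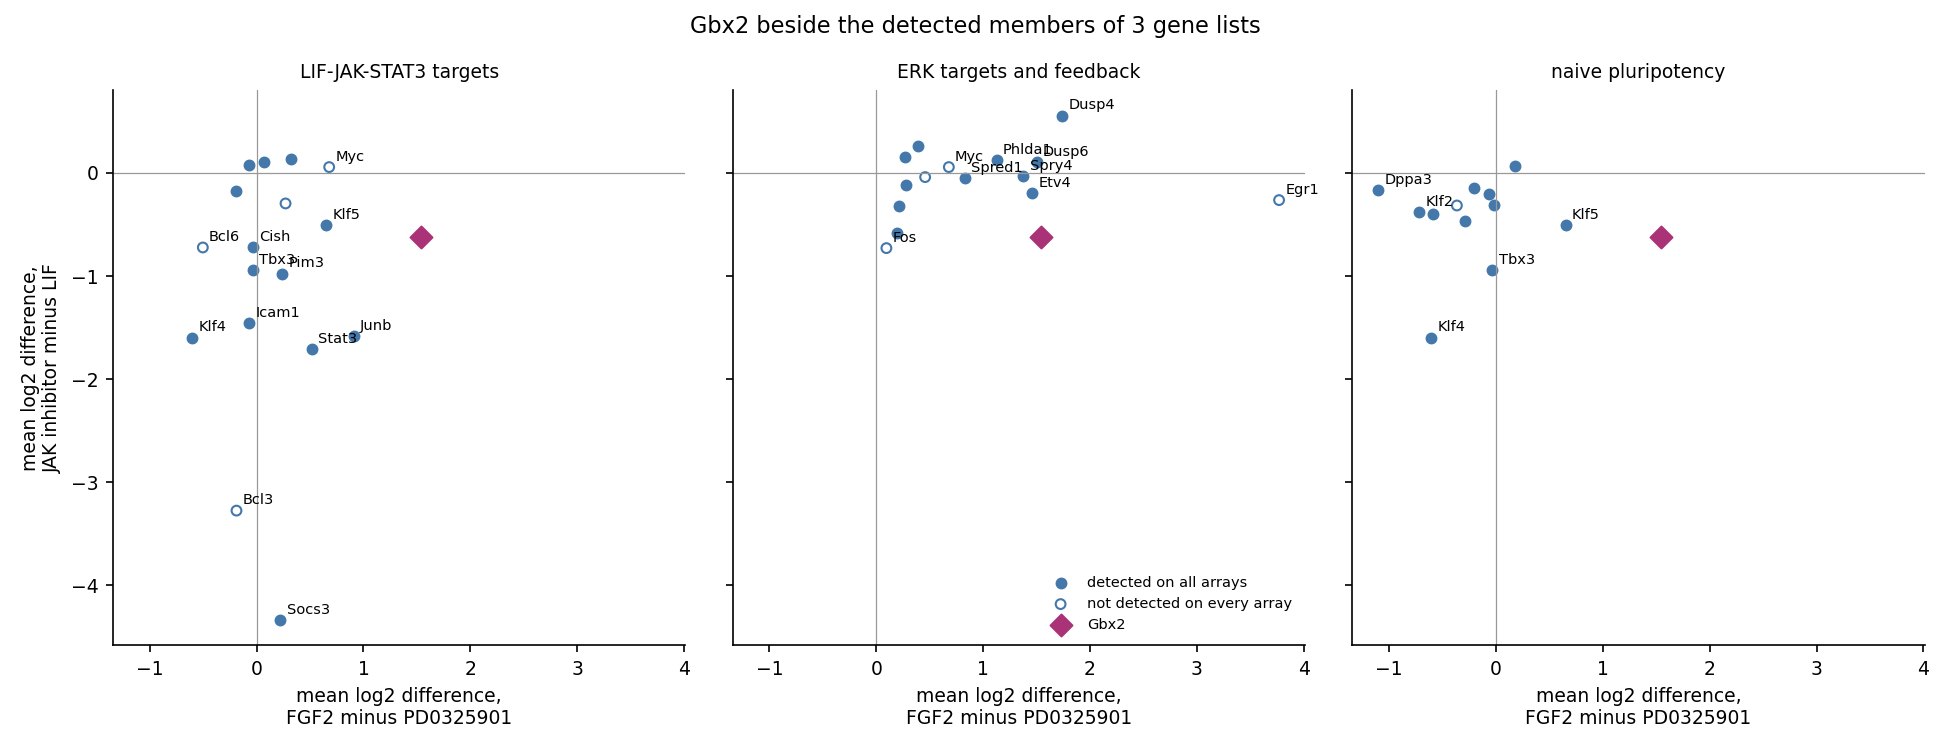
Mean log2 difference over both backgrounds for FGF2 minus PD0325901 (x) and for JAK inhibitor minus LIF (y), for the detected members of 3 gene lists, with Gbx2 as a diamond in each panel; open circles were not detected on every array, and their size is uncertain. LIF targets such as Socs3 and Icam1 lie far down near x = 0, and ERK genes such as Egr1, Dusp6 and Etv4 lie to the right near y = 0. Other members depart from this, among them Junb of the LIF targets (0.91 and −1.59). Of the ERK genes, Fos (0.09 and −0.73) and Ier3 (0.19 and −0.58) do so too. Gbx2 lies at 1.54 and −0.62.

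Among the factors of naive pluripotency, 13 of the 14 genes with a probe were detected, and 12 stood beside Gbx2. Their medians for FGF2 were −0.23 with LIF and −0.26 with the JAK inhibitor, opposite in sign to Gbx2. The second of these was 0.07 with median scaling and 0.20 without normalization, where the medians of all genes were 0.29 and 0.42. Klf5 was the only member besides Gbx2 that was at least 1.5-fold higher with FGF2 in both backgrounds, as 0.755% of all genes were. It passed narrowly with the JAK inhibitor, at 1.51-fold (1.64-fold with LIF). For the JAK inhibitor the medians were −0.43 and −0.40, in the direction of Gbx2 but smaller in size than its −0.56 and −0.68. Nanog was lower in both contrasts, with levels of 11.32 in PD/LIF, 10.71 in FGF2/LIF, 10.90 in PD/JAKi and 10.34 in FGF2/JAKi.

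Klf4, a factor that Gbx2 is known to raise when overexpressed in mouse ES cells, did not follow it on the probe used. Its levels were 8.82 in PD/LIF, 8.38 in FGF2/LIF, 7.39 in PD/JAKi and 6.62 in FGF2/JAKi. It was thus highest where Gbx2 was second lowest, and lowest where Gbx2 was second highest. Its other detected probes gave FGF2 differences of −0.14 and −0.01 and of 0.56 and 0.19. Its direction with FGF2 therefore depends on the probe, whereas all 3 probes were lower with the JAK inhibitor. The probe with 0.56 and 0.19 was highest in FGF2/LIF and lowest in PD/JAKi, as Gbx2 was. Unlike Gbx2, that probe was lower in FGF2/JAKi than in PD/LIF (log2 −1.33). The core factors Pou5f1 (0.07 and −0.02 for FGF2) and Sox2 (−0.04 and 0.19) differed little on the probes used. Their other detected probes gave 0.19 and 0.12 for Pou5f1 and −0.39 and −0.30 for Sox2.

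Of the genes that act with Gbx2 at the midbrain-hindbrain boundary, 12 others have a probe and 4 were detected. Gbx1, the other member of the family, was not detected on any array, with signals of 76.2 to 81.0. Fgf8, En1, Wnt1, Pax2, Pax5, Pax8 and Lmx1b were not detected either. Otx2 was detected on all 4 arrays, with levels of 6.98 in PD/LIF, 6.79 in FGF2/LIF, 7.22 in PD/JAKi and 8.13 in FGF2/JAKi. Only the last array stood apart, so that Otx2 was lowest where Gbx2 was highest, but was highest where Gbx2 was second highest. In the presence of FGF2, Otx2 was 2.53-fold above its LIF level under JAK inhibition, while Gbx2 was 1.61-fold lower.

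Fgf17, a relative of FGF8, was detected at 6.28, 6.52, 5.46 and 5.98, and En2, a homeobox gene, at 5.98, 6.29, 5.39 and 6.05. After normalization both were highest in FGF2/LIF and lowest in PD/JAKi, as Gbx2 was. Their FGF2 differences were 0.25 and 0.52 for Fgf17 and 0.31 and 0.66 for En2. Both were close to background, with deposited signals of 98.6 to 160. As deposited, En2 was not higher in FGF2/LIF (146.7) than in FGF2/JAKi (147.5). Otx1 was not detected in PD/LIF.

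Markers of other cells were read beside Gbx2. Of the neuroectoderm and hindbrain list, 4 of 10 genes with a probe were detected (Nes, Irx3, Meis1 and Meis2), and the defining genes Sox1, Pax6, Pax3, Hoxb1, Hoxa2 and Zic1 were not detected on any array. The summed background-corrected signal of the 4 was 243 in PD/LIF, 368 in FGF2/LIF, 282 in PD/JAKi and 455 in FGF2/JAKi. These sums are not normalized between arrays. After normalization the medians of the 4 genes were 0.29 and 0.13 for FGF2 and 0.14 and 0.08 for the JAK inhibitor, and Nes stood at −0.18 for the JAK inhibitor with PD0325901. Of the fibroblast and feeder list, 5 of 8 genes were detected, and their summed signal was highest in PD/LIF (3404, against 2347 to 2623 on the other 3 arrays). Most of that sum was Acta2, a smooth muscle actin, with signals of 2856 in PD/LIF and of 2213 to 2510 elsewhere. After normalization Acta2 stood at 0.02 for the JAK inhibitor with PD0325901 on the probe used, and at −0.25 to −0.37 on its other probes. The normalized medians of the 5 genes were −0.55 and −0.05 for FGF2 and −0.67 and −0.13 for the JAK inhibitor. Dcn, which encodes decorin, had a normalized level of 8.86 in PD/LIF and of 6.45 to 6.70 elsewhere (log2 signal). Of the formative and primed epiblast list, 5 of 10 genes with a probe were detected. Their medians were 0.52 and 0.78 for FGF2 (the first was 0 with the authors' value table) and 0.29 and 0.46 for the JAK inhibitor. Pou3f1 stood at 1.70 and 1.13 for FGF2, Zic2 at −0.05 and −0.39. The 4 detected primitive endoderm genes had medians of 0.66 and 0.30 for FGF2 and −0.35 and −0.42 for the JAK inhibitor. No primitive streak gene was detected with the JAK inhibitor. The part of these markers in the Gbx2 differences was not tested.

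The Gbx2 differences were last compared over the ways of processing the arrays. FGF2 minus PD0325901 ran from 1.52 to 1.77 with LIF and from 1.36 to 1.94 with the JAK inhibitor, and JAK inhibitor minus LIF from −0.67 to −0.50 with PD0325901 and from −0.69 to −0.50 with FGF2. The widest range belonged to the contrast that sets the array with the highest median signal against the one with the lowest. The Gbx2 difference between FGF2/JAKi and PD/LIF, 1.89-fold as reported, ran from 1.81-fold to 2.42-fold, so it lay on either side of 2-fold. Over all genes, 180 (2.16%) were at least 2-fold apart in any of the 4 single differences.

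**Figure D5:**
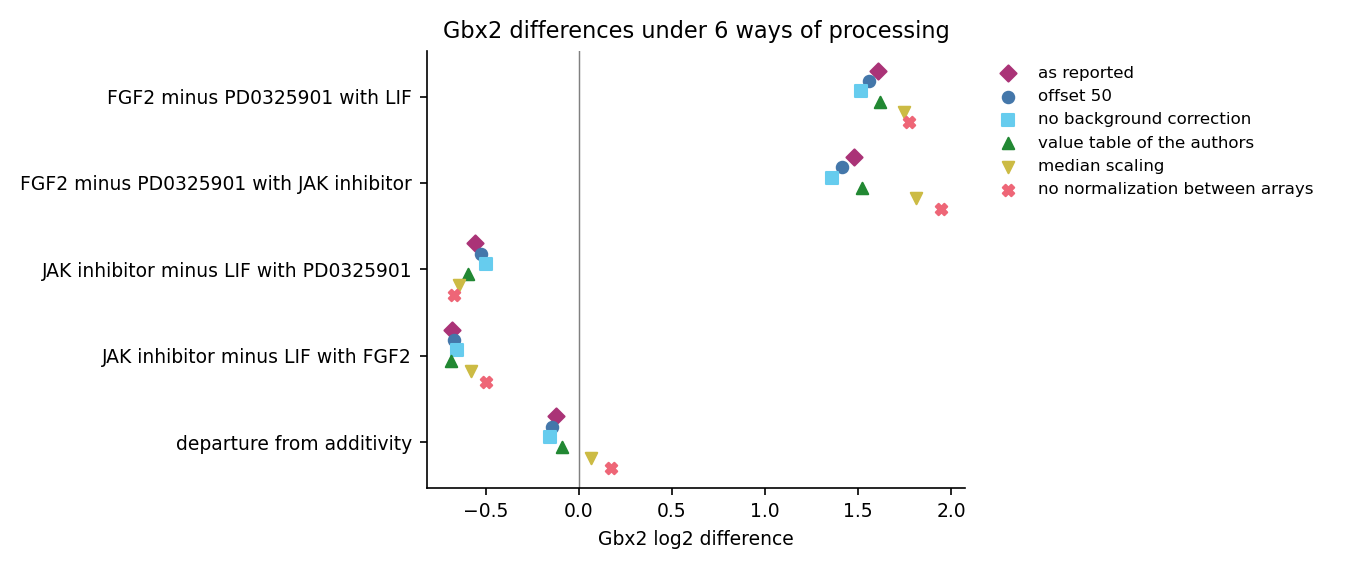
The 4 Gbx2 log2 differences and the departure from additivity (rows) under 6 ways of processing the same 4 arrays (symbols). The FGF2 differences lie between 1.36 and 1.94 and the JAK inhibitor differences between −0.69 and −0.50, all on their own side of 0, while the departure changes sign with median scaling and without normalization.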

How the data were processed

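RNA was purified on columns with DNase treatment, and 400 ng entered amplification with Cy-3 labelling, per the labels' protocols. The submitters' processing notes name BeadStudio; version and settings were not stated. Each deposited array table holds, per the file headers, a mean bead signal (intensity), a bead standard error and a detection p-value for every probe. The authors' value table holds whole-number intensities with equal medians (71) and lists 13029 to 13040 probes per array; its normalization was not stated.

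From the deposited signals, background was corrected with limma 3.58.1 (nec, from the detection p-values, offset 16), followed by log2 and quantile normalization of all 25697 probes. The RefSeq table of GRCm38.p6 updated symbols, and 23978 probes had 1 symbol. A gene counted as detected, and was kept, if its detection p fell under 0.01 on any array; 1 probe stood for each gene (highest mean). Where a gene was undetected on 1 array of a pair, its fold was bounded by the higher of that array's detection limit and the gene's value. Bead intervals are the difference ± 1.96 bead standard errors. The script was tested on simulated data. No test was run, with 1 array per condition. Named genes were Gbx2, list members 2-fold in any difference or needed to describe a list, the 10 nearest profiles and up to 10 genes with its pattern; Wnt6 and Hmces were named after their values were seen. Gbx2, the lists and the thresholds were chosen with earlier results of these data known.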

Additional observations from a re-analysis of the deposited data

Results flagged for a closer look

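The JAK inhibitor differences of Spry4, a feedback inhibitor of ERK signalling in the list set beside Gbx2, ran in opposite directions in the 2 backgrounds. Spry4 was higher with the JAK inhibitor than with LIF beside PD0325901 (log2 0.48) and lower beside FGF2 (log2 −0.55). The first difference is uncertain in size, since both its deposited signals were close to background (116 in PD/LIF and 129 in PD/JAKi). No other probe of Spry4 was detected. Of the list members and near profiles detected on all 4 arrays, it was the only gene with opposite differences of at least 0.32 each (log2). Gbx2, in contrast, was lower with the JAK inhibitor in both backgrounds. The difference between the backgrounds was not tested, since each condition is 1 array.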

How the results depend on the processing

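Over 5 alternatives each, 25 of 35 values for Gbx2 moved by less than their bead interval, 8 moved by more and 2, both the departure from additivity, changed sign (0.065 with median scaling, 0.17 without normalization between arrays). Without normalization, the FGF2 difference was 1.77 beside LIF and 1.94 beside the JAK inhibitor, JAK inhibitor minus LIF with FGF2 was −0.50, both stimulated minus both blocked 2.44, and FGF2 with the JAK inhibitor minus PD0325901 with LIF 1.27. With median scaling the second of these was 1.81 and the last pair 2.39 and 1.17. The median of all genes itself shifted by 0.14 with LIF and 0.42 with the JAK inhibitor for FGF2 without normalization. Genes at least 2-fold in any of the 4 single differences numbered 180, against 44 without background correction, 67 with an offset of 50, 118 with detection on all 4 arrays, 321 without normalization and 451 with the authors' value table. By difference, 19 to 124 and 7 to 154 genes were at least 2-fold higher with FGF2 (57 and 23 as reported), and 15 to 116 and 19 to 83 lower with the JAK inhibitor (54 and 36). In FGF2/LIF against PD/JAKi 28 to 163 genes were higher (83 as reported), and in FGF2/JAKi against PD/LIF 15 to 314 (60). The Gbx2 pattern held for 13 genes, against 3, 5 and 25 without background correction, with an offset of 50 and without normalization, Gbx2 among them each time. The use of another probe was not run, since Gbx2 has 1. The counts of the 10 nearest genes that remained were chosen after seeing the data. No paired analysis was possible because each condition is 1 array. Genes near background have uncertain sizes.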
